A study of Mus musculus with 33 samples.

Results

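The SSEA1-negative (SSEA1-) fraction of mouse cells undergoing reprogramming was compared between day 6 and day 9. The 6 libraries were chosen by their sample labels, 3 of day 6 SSEA1- cells and 3 of day 9 SSEA1- cells, out of 33 libraries in 11 groups of the series. The whole series holds MEFs (mouse embryonic fibroblasts) and both SSEA1 fractions of day 3, day 6, day 9, day 12 and the iPS (induced pluripotent stem cell) stage. All cells had the strain label 129SV/Jae/C57BL6J. The day 6 and day 9 SSEA1- groups shared the reprogramming medium, an ES cell medium with dox and AA, so that dox was present in both. They also shared the harvest, in which cells were released with trypsin, stained and sorted by FACS. The day 6 and day 9 SSEA1+ groups, used for comparison, had the same strain and medium, with 3 libraries each. The labels name neither the introduced factors nor the purity of the sort, and they do not say whether replicates were separate cultures or animals. The p-values therefore speak only of the spread between libraries of a group, taken over all 11 groups in the main model, and that spread may be technical.

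Reprogramming turns a fibroblast into a pluripotent cell by forced expression of transcription factors, and only a small share of the cells completes it. SSEA1 is a fucosylated carbohydrate on the surface of mouse pluripotent cells, and cells that gain it during reprogramming are enriched for those on the way to pluripotency. Cells that stay SSEA1- are known mostly as cells that keep mesenchymal features or stall, although some can still turn SSEA1+ later. An early part of the route is a mesenchymal-to-epithelial transition, in which cells switch off matrix and migration genes and assemble adherens junctions, tight junctions and desmosomes. The late part is the switching on of the cell's own pluripotency network.

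Reads counted in genes ran from 12.62 to 32.59 M per library, with 18864 to 20497 genes with a read, and the shallowest was replicate 3 of day 9. Levels are CPM, counts scaled to a common library total after TMM normalisation. A gene with 0 reads allows up to 3 counts, or 0.0920 to 0.238 CPM in these libraries, for counting error only. Libraries with the same replicate number resembled each other more than libraries of the same day did. Across genes, log2 CPM correlated at r = 0.983 to 0.990 between the days for the same number and at 0.962 to 0.983 between libraries of 1 day. For 6 of 6 libraries the closest other library was the one with the same number from the other day. The deviations from the group means correlated at 0.80, 0.78 and 0.42 within the pairs numbered 1, 2 and 3, so each day 9 library was also read against the day 6 library of its number.

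**Figure D1:**
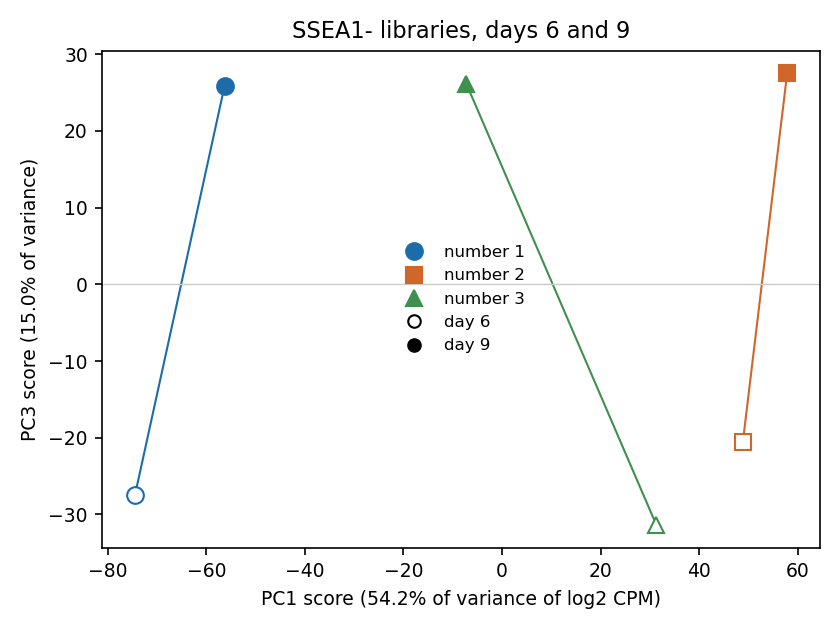
Scores of the 6 SSEA1- libraries on principal components 1 and 3 of log2 CPM (horizontal axis, 54.2% of the variance; vertical axis, 14.96%), with open symbols for day 6, filled symbols for day 9 and a line joining libraries of the same number. Component 1 runs from -74.5 and -56.3 for number 1 to 48.8 and 57.8 for number 2, and on component 3 the days stand apart, with day 6 at -31.4 to -20.6 and day 9 at 25.8 to 27.5.

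The step in the SSEA1- fraction was small against the spread between libraries of the same day, which includes the differences between replicate numbers. With edgeR's quasi-likelihood test, 0 of 17326 genes changed at an adjusted p under 0.05 and at least 2-fold (0% of the genes tested in each direction), and the smallest adjusted p was 0.225. At an unadjusted p under 0.05, 255 genes were higher (1.47%) and 219 lower (1.26%) at day 9. The same test in a fit of the 6 libraries alone, with the replicate number as a block, called 10 genes, all higher (0.0677% of 14780 genes), and the DESeq2 Wald test called 8, all higher (0.0462%). Epcam, Grhl2 and Pax7 were called by both. With the same block in the model of 33 libraries edgeR called 0 genes. At an unadjusted p under 0.05, the fit of 6 libraries with the block had 1462 genes higher and 1085 lower at day 9. Over the same days 187 genes changed in the SSEA1+ fraction (1.08%), of which 173 rose (0.998%) and 14 fell (0.0808%). Gene lists are described here by counts and medians beside the same values for all tested genes. Among all tested genes, 17.3% were higher and 24.2% lower at day 9 in all 3 pairs, a split that became 22.5% and 17.8% with DESeq2's size factors, and the median log2 change was -0.02. Day 9 lay above day 6 with no overlap in 3.28% of genes and below it in 3.47%.

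Epithelial genes were mostly higher at day 9, some of them from very low levels. Of 34 measured epithelial genes 21 were higher at day 9 in all 3 pairs and 0 were lower in all 3, with a median log2 change of 0.90, and 7 had day 9 values above all day 6 values. No member passed the test in the model of 33 libraries, and 12 had an unadjusted p under 0.05. Within the pairs the median was 0.71, 0.89 and 1.35. Among the 26 members with a mean of at least 1 CPM over the 6 libraries, the median was 0.86, with 18 higher in all pairs. A gene can pass this filter, used for other lists as well, through its day 9 values alone. Its counts are therefore no separate support for a rise. In bulk RNA a change in the share of cells of a type and a change in RNA per cell cannot be told apart.

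Grhl2 (ENSMUSG00000022286) encodes a grainyhead transcription factor that activates epithelial junction genes. Its level was 0.232, 0.0404 and 0.263 CPM in day 6 libraries 1, 2 and 3, which is 6, 1 and 9 reads, and 3.00, 0.608 and 5.21 CPM at day 9. Every day 9 library was above every day 6 library, and library 2 was the lowest at both days. The log2 change was 3.92 ± 0.76 (SE) with an adjusted p of 0.225 in edgeR's quasi-likelihood test of all 33 libraries. It was 4.04 with an adjusted p of 0.042 in the paired edgeR fit of 6 libraries, and its DESeq2 adjusted p was 0.00042. Without replicate 2 of day 9, Grhl2 was the 1 gene that edgeR called in the model of all groups, with a log2 change of 4.43 and an adjusted p of 0.029. At day 9 the SSEA1- mean was 8.11% of the SSEA1+ mean.

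Cldn7 encodes a claudin, one of the sealing proteins of tight junctions. It stood at 0.309, 0.121 and 0.205 CPM at day 6, from 8, 3 and 7 reads, and at 2.75, 1.18 and 4.41 CPM at day 9, again without overlap. Its log2 change was 3.65 ± 0.72 (edgeR adjusted p = 0.225, DESeq2 adjusted p = 0.00068). Cldn4, another claudin gene, went from 1.54, 0.849 and 2.75 CPM to 7.71, 2.43 and 11.8 CPM, with a log2 change of 2.05 ± 0.55. It was higher in all 3 pairs, and its day 9 library 2 lay within the day 6 range. Epcam encodes an epithelial adhesion molecule that is also used as a surface marker of pluripotent cells. Its level was 4.83, 2.99 and 6.50 CPM at day 6 and 18.7, 10.2 and 36.7 CPM at day 9, with no overlap. The log2 change was 2.18 ± 0.48 (edgeR adjusted p = 0.50), and the adjusted p was 0.042 in the paired edgeR fit and 0.0105 with DESeq2. Day 9 SSEA1- cells had 10.2% of the mean Epcam level of day 9 SSEA1+ cells, and for Cldn7 the share was 5.92%.

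The stretches upstream of Epcam and of the second annotated start of Cldn7 are shown because both genes lay above their day 6 values in every day 9 library and both hold matches to the E2-box, the binding motif of the epithelial repressors Snai1, Snai2 and Zeb1. Each is the 250 bases before an annotated start, on the plus strand of GRCm38.p6, from RefSeq, at chr17:87635729-87635978 for Epcam and chr11:69965171-69965420 for Cldn7. Capitals mark CACCTG on either strand.
Epcam: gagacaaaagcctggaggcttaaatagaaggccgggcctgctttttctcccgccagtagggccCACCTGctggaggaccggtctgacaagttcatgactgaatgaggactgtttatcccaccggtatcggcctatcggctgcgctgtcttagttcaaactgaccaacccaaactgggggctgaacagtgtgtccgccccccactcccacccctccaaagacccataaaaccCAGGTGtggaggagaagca
Cldn7: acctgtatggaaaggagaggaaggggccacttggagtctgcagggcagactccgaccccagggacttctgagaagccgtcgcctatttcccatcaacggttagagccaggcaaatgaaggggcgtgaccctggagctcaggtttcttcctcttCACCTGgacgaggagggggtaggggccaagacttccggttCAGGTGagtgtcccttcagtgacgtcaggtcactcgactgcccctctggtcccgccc
Each stretch holds 2 matches. The matches lie 19 and 187 bases before the Epcam start and 57 and 97 bases before that Cldn7 start, and the window before the other Cldn7 start, chr11:69964529-69964778, has none. Promoter windows were at hand for 21 of the 34 epithelial genes, and 14 of these 21 held CACCTG (66.7%), against 19.4% of all 27025 genes with a window and 19.5% of the tested ones. These matches are letters in a window and were not tested as binding sites.

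Dsp, Cdh1 and Krt8, junction and keratin genes with higher levels at day 6, had smaller log2 changes than Grhl2 and Cldn7. Dsp, for the desmosome protein desmoplakin, was at 16.4, 3.60 and 12.9 CPM at day 6 and 44.8, 11.1 and 37.0 CPM at day 9. Each day 9 library was above its own pair, although the groups overlapped because library 2 was low at both days. Its log2 change was 1.5 ± 0.67, and 1.57 with an adjusted p of 0.0225 in the paired edgeR fit of 6 libraries. Cdh1, which encodes E-cadherin of adherens junctions, stood at 79.8, 23.6 and 31.0 CPM at day 6 and at 149.9, 17.5 and 89.2 CPM at day 9. Its libraries did not move together, being higher in pairs 1 and 3 and lower in pair 2, and the log2 change was 0.93 ± 0.67. Krt8, a keratin of simple epithelia, was at 13.5, 2.99 and 5.50 CPM and then at 20.0, 5.81 and 15.9 CPM (0.92 ± 0.79). Erbb3, a receptor of the EGF receptor family named after its values were seen, was even across libraries, at 1.85, 2.22 and 2.87 CPM and then 6.59, 6.72 and 6.98 CPM. Its log2 change was 1.54 ± 0.31 (edgeR adjusted p = 0.225, DESeq2 adjusted p = 0.0041), and the groups did not overlap.

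**Figure D2:**
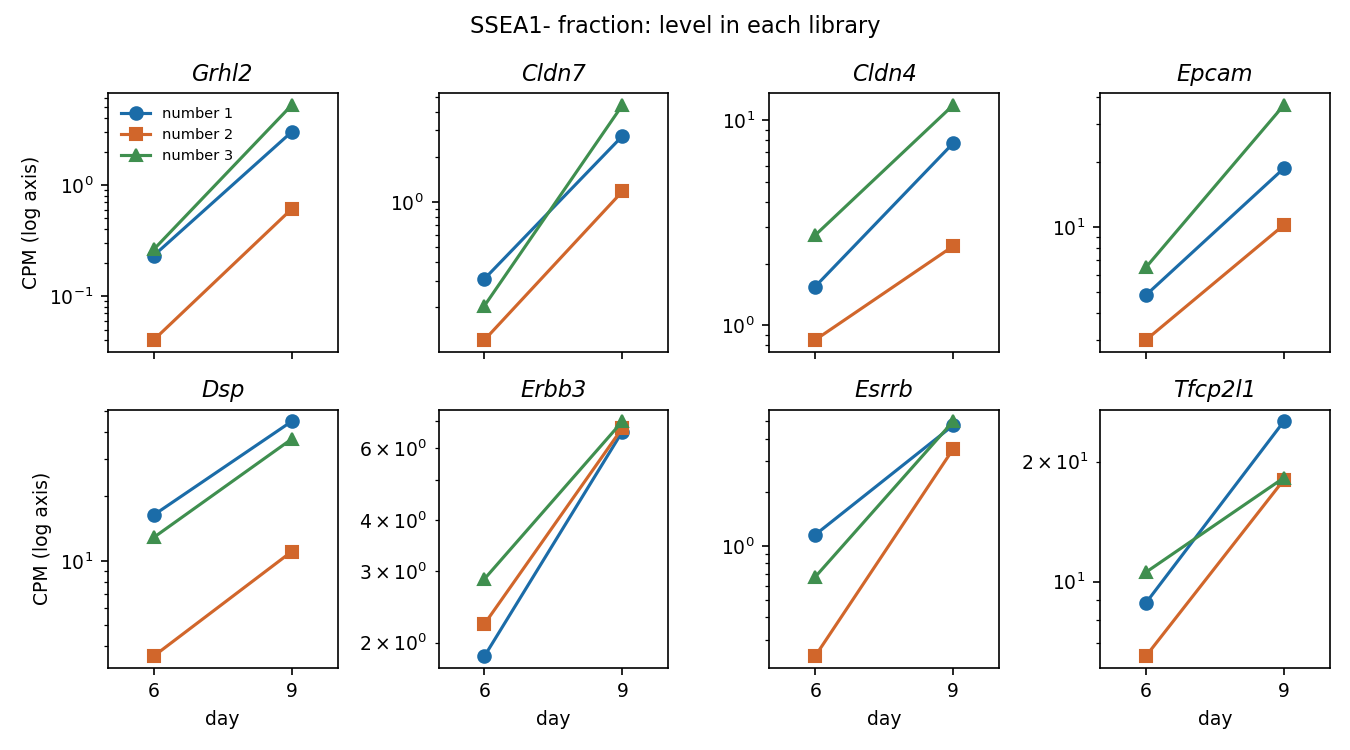
CPM on a log axis at day 6 and day 9 for 8 genes in the SSEA1- fraction, with 1 line per replicate number. All 24 lines go up, library 2 is the lowest at both days for Grhl2, Cldn7, Cldn4, Epcam and Dsp, and the Erbb3 day 9 values lie at 6.59 to 6.98 CPM. The genes drawn are a selection, and Cdh1 and Nanog, each lower at day 9 in 1 pair, are not among them.

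Genes of the pluripotency network were mostly higher at day 9, and most of those with large ratios stayed at a few CPM or less. Of 35 measured members 17 were higher and 3 lower in all 3 pairs, with a median log2 change of 0.73, and 8 had no overlap with day 6. No member passed edgeR's test. Among the 19 members with a mean of at least 1 CPM, 7 were higher in all pairs, and the median was 0.36. Esrrb, an orphan nuclear receptor of the network, was at 1.16, 0.242 and 0.673 CPM at day 6 and at 4.74, 3.49 and 4.99 CPM at day 9. The groups did not overlap, and the log2 change was 2.65 ± 0.84. Tfcp2l1, a transcription factor of naive pluripotency, went from 8.85, 6.51 and 10.6 CPM to 25.2, 18.0 and 18.2 CPM (1.25 ± 0.52), again with no overlap.

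Nanog, a core factor of the network, showed no common direction. It stood at 1.39, 2.99 and 10.8 CPM at day 6 and at 6.15, 4.56 and 9.62 CPM at day 9 (0.39 ± 0.77), higher in pairs 1 and 2 and lower in pair 3. Lin28a, an RNA-binding repressor of let-7 maturation, was at 0.116, 0.0404 and 0.0585 CPM at day 6 and 1.498, 0.0759 and 0.441 CPM at day 9. Dppa5a and Zfp42, markers of the established pluripotent state, reached at most 0.955 and 1.18 CPM in the day 9 SSEA1- libraries, against 18.5 to 39.2 and 14.2 to 20.6 CPM in day 9 SSEA1+ cells. The SSEA1- mean of Nanog was 4.58% and that of Esrrb 4.45% of the SSEA1+ mean at day 9.

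The reprogramming factor genes did not share a direction. Their reads may come from the introduced or the native copy, and these cannot be told apart. Pou5f1 was at 83.1, 34.0 and 34.0 CPM at day 6 and at 66.0, 36.8 and 56.7 CPM at day 9, a log2 change of 0.08 ± 0.65 that was negative without replicate 3 of day 6 (-0.14). Sox2 stood at 11.2, 42.7 and 17.5 CPM and then at 10.49, 55.2 and 22.8 CPM (0.31 ± 0.67), with library 2 highest at both days. Klf4 went from 170.3, 142 and 102 CPM to 171, 186 and 149 CPM (0.29 ± 0.36), which was higher in all 3 pairs. With the GC trend removed, 0 of the 4 factor genes were higher in all 3 pairs. Myc was lower in all 3 pairs, at 235, 447 and 409 CPM and then 204, 411 and 364 CPM, with a log2 change of -0.16 ± 0.38.

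Fut9, the fucosyltransferase gene whose product makes SSEA1, was at 4.29, 5.46 and 7.72 CPM at day 6 and at 8.40, 10.7 and 13.8 CPM at day 9. Day 9 lay above day 6 with no overlap, and the log2 change of 0.91 ± 0.50 did not pass the test. The SSEA1- mean at day 9 was 17.6% of that in SSEA1+ cells, so both fractions held Fut9 transcripts. Fut4, the other transferase of this linkage, differed by -0.13 ± 0.44. Thy1, a fibroblast surface antigen that is lost early in productive reprogramming, was at 401, 539.9 and 357 CPM and then at 556, 849 and 449 CPM. It was higher in all 3 pairs, with a log2 change of 0.51 ± 0.47, and the day 9 SSEA1+ libraries held 13.3 to 52.7 CPM. Among 20 genes of surface antigens and SSEA1 synthesis 9 were higher and 1 lower in all 3 pairs, with a median of 0.49.

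Genes of the mitotic part of the cell cycle were lower at day 9 in every pair. All 20 measured genes of G2 and M phase were lower in all 3 pairs, with a median log2 change of -0.70, from -0.89 for Birc5 to -0.57 for Cdc20. No gene of the list passed edgeR's test, 12 had an unadjusted p under 0.05, and 0 had groups without overlap. The count of 20 lower in all pairs was the same with DESeq2's size factors and with the GC trend removed. Ccna2, for cyclin A2, was at 102, 110.3 and 173 CPM at day 6 and 61.0, 54.3 and 109 CPM at day 9. Its log2 change was -0.78 ± 0.31, and day 9 library 3 lay within the day 6 range. Ube2c, the ubiquitin-conjugating enzyme of the anaphase-promoting complex, stood at 63.1, 106 and 141 CPM and then at 36.5, 49.2 and 86.0 CPM, with a log2 change of -0.86 ± 0.35. Library 3 was the highest at both days for Ccna2 and Ube2c. Cep55, a protein of the final cut between daughter cells, lies outside the list and was named after its values were seen. It was at 37.5, 43.3 and 52.9 CPM and then at 18.7, 16.5 and 36.0 CPM (-0.92 ± 0.26), with no overlap.

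The stretch before the Ube2c start is shown because the genes of this group were lower together and are known for these motifs: the CHR (cell-cycle genes homology region, TTTGAA), through which the DREAM and MuvB complexes act, and the CCAAT box, the motif of NF-Y. It is chr2:164769679-164769928 of GRCm38.p6, plus strand, from RefSeq. Capitals mark TTTGAA or CCAAT on either strand, and some CCAAT matches on opposite strands share bases.
Ube2c: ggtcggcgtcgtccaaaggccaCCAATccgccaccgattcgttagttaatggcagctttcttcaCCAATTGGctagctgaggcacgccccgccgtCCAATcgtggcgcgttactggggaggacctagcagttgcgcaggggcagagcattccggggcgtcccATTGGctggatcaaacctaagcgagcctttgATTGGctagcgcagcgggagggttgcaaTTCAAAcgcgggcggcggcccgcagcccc
It holds 1 match to TTTGAA, 29 bases before the start, and 6 to CCAAT. Windows were at hand for 16 of the 20 genes of the list, of which 7 held TTTGAA (43.8%), against 18.3% of all genes with a window and 13.0% of the tested ones. CCAAT was present in 14 of the 16 (87.5%), against 37.5% of all. Genes of S phase, described next, were also mostly lower. Of 16 of them with a window, 2 held TTTGAA (12.5%) and 10 held CCAAT (62.5%). A role of these motifs was not tested. The Nusap1 window held neither of these motifs, and Nusap1, a spindle protein gene, was at 53.3, 88.8 and 143 CPM at day 6 and 35.7, 43.9 and 85.0 CPM at day 9.

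Of 20 genes of S phase 17 were lower in all 3 pairs and 0 higher, with a median log2 change of -0.53. Cdc6, a licensing factor of replication origins, was at 13.4, 15.1 and 26.7 CPM at day 6 and at 8.80, 8.70 and 14.7 CPM at day 9 (-0.79 ± 0.35). Its day 9 library 3 lay within the day 6 range. The cyclin-dependent kinase inhibitor genes showed no common direction. Cdkn2a stood at 64.5, 128 and 44.9 CPM and then 75.8, 144 and 72.6 CPM (0.30 ± 0.54), and Cdkn1a differed by 0.13 ± 0.44. Of 22 p53 targets and CDK inhibitors 3 were higher and 1 lower in all pairs, with a median of -0.01 that was 0.04 with DESeq2's size factors.

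**Figure D3:**
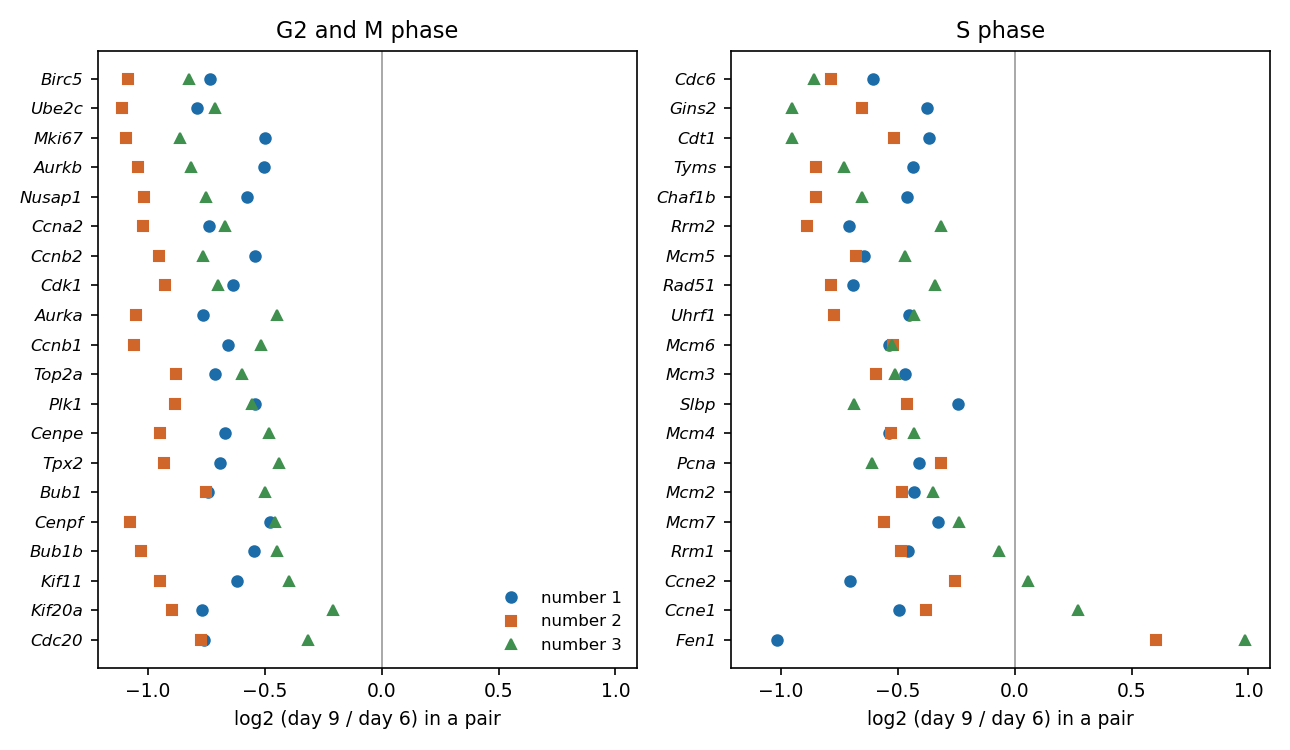
Log2 ratio of day 9 to day 6 within each same-numbered pair for the 20 genes of G2 and M phase (left) and the 20 of S phase (right), 1 symbol per pair. All points of the left panel lie below 0, and 17 of 20 genes on the right have all 3 points below 0.

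Genes of mitochondria and of ribosome assembly differed by less, with the same sign in most pairs. All 30 respiratory chain genes were lower in all 3 pairs with TMM scaling and 25 of 30 with DESeq2's size factors, with a median of -0.24. Uqcrc2, a core subunit of complex III, went from 251, 248 and 297 CPM to 198, 205 and 226 CPM, with a log2 change of -0.34 ± 0.15 and no overlap. Of 20 ribosome biogenesis genes 14 were lower in all pairs, and 11 with DESeq2's size factors, with a median of -0.19. Npm1, a nucleolar chaperone, was at 1995, 2258 and 2794 CPM and then at 1481, 1726 and 1884 CPM (-0.47 ± 0.22), and the groups did not overlap. Slc38a4, an imprinted amino acid transporter gene, was at 155, 132 and 142 CPM and then at 70.8, 74.0 and 94.7 CPM (-0.84 ± 0.27), also without overlap.

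Fibroblast and mesenchymal genes were on average below their MEF levels at both days, and these and the matrix genes differed little between the days. Of 33 measured fibroblast and mesenchymal genes 10 were higher and 2 lower in all 3 pairs, with a median of 0.23 that was -0.08 without replicate 2 of day 9. The mean log2(CPM + 1) of the list was 7.21 to 8.06 at day 6 and 7.63 to 8.37 at day 9, against 9.86 to 10.19 in MEFs. The basement membrane and integrin list was not below MEFs, at 6.16 to 7.17 at day 6 and 6.68 to 7.21 at day 9 against 6.79 to 6.89. Col1a1, a chain of type I collagen, stood at 521, 2589 and 1447 CPM at day 6 and 829, 4075 and 1219 CPM at day 9. Its log2 change of 0.43 ± 0.80 was -0.53 without replicate 2 of day 9. Fn1, for fibronectin, was higher in all 3 pairs, at 4905, 3383 and 2313 CPM and then 6515, 4531 and 3725 CPM (0.48 ± 0.35), with overlap. Postn, a matrix protein of mesenchymal cells, was at 24.3, 143 and 176 CPM and then at 151, 344 and 207 CPM (1.03 ± 0.68). Medians were also above 0 for 19 TGF-beta response genes (0.33, with 9 higher in all pairs), 22 matrix proteases and their inhibitors (0.27, with 7), 27 basement membrane and integrin genes (0.20, with 11) and 17 contractile genes (0.20, with 6). The last of these medians turned to -0.01 without replicate 3 of day 6, and that of the basement membrane genes to -0.04 without replicate 1 of day 9. Of 37 Hox genes 10 were lower and 4 higher in all pairs, a split that was 7 and 7 with DESeq2's size factors. Hoxd13, of the distal limb, was at 43.3, 54.1 and 52.2 CPM and then at 29.1, 40.1 and 23.1 CPM (-0.69 ± 0.40), with no overlap.

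The 10 genes called in the paired edgeR fit of 6 libraries included mesenchymal and skeletal genes beside the epithelial Epcam, Grhl2 and Dsp. Dsp and the genes described next were named after their values were seen, although Dmp1 also falls under the rule. Crispld2, a secreted protein gene, stood at 6.61, 11.8 and 10.6 CPM at day 6 and at 26.7, 38.0 and 32.9 CPM at day 9, with no overlap. Its log2 change was 1.82 with an adjusted p of 0.0225 in that fit. Tnfrsf11b encodes osteoprotegerin, a decoy receptor that holds back bone resorption. It was at 84.6, 218 and 91.4 CPM and then at 161, 546 and 207 CPM, higher in every pair but overlapping between groups, and rose by 1.19 in the paired edgeR fit (adjusted p = 0.042). Dmp1, a matrix protein of mineralised tissue, went from 4.83, 13.3 and 9.68 CPM to 14.7, 38.8 and 23.9 CPM. Pax7, a transcription factor of muscle precursors and the dorsal neural tube, was at 0.309, 0.0404 and 0.702 CPM and then at 3.28, 0.608 and 8.15 CPM. It was higher in every pair, but its day 9 library 2 lay within the day 6 range. Chdh, a choline dehydrogenase gene, and Kcnt1, a potassium channel gene, rose in the paired edgeR fit by 1.79 and 1.83, each with an adjusted p of 0.0467. In day 9 SSEA1+ cells the means were 8.66 CPM for Tnfrsf11b and 0.156 CPM for Dmp1, below the SSEA1- means of 304.5 and 25.8 CPM. Crispld2, Chdh and Pax7 were the other way round, at 46.1, 21.8 and 16.6 CPM in SSEA1+ and 32.5, 13.2 and 4.01 CPM in SSEA1- cells.

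DESeq2's 8 genes shared Epcam, Grhl2 and Pax7 with the paired fit and held Cldn7, Erbb3, Grb7, Gpx2 and Vtn besides, the last 3 also named after their values were seen. Grb7, an adaptor of receptor tyrosine kinases, was at 0.0386, 0.0808 and 0.351 CPM and then at 1.03, 0.570 and 1.76 CPM. Gpx2, an epithelial glutathione peroxidase, had 1 read in each day 6 library and 1.09, 0.0759 and 2.42 CPM at day 9. Vtn, for vitronectin, had 0 reads at day 6 and at most 0.0734 CPM at day 9, below the level that 0 reads allow, so no fold is given.

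**Figure D4:**
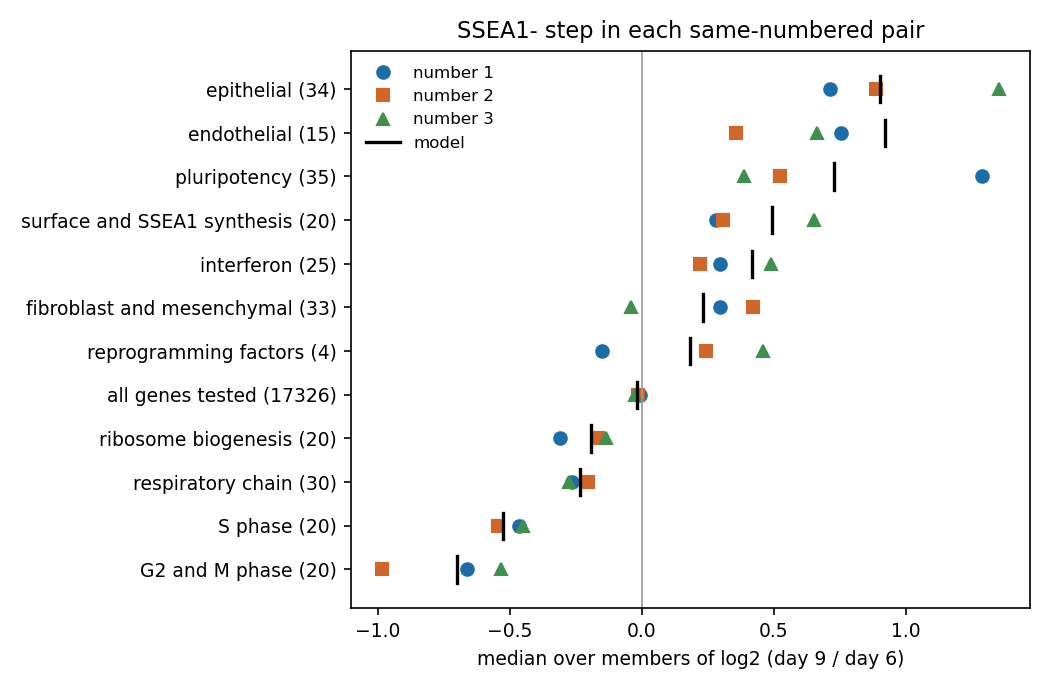
Median log2 ratio of day 9 to day 6 over the members of 11 gene lists and over all tested genes, with 1 symbol per same-numbered pair, a bar for the median in the model of 33 libraries and the number of measured genes in parentheses. The epithelial list lies at 0.71 to 1.35 in the pairs and the list of G2 and M phase at -0.98 to -0.54, while all tested genes lie at -0.02 to -0.01.

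Macrophage markers differed in level more between replicate numbers than between days. The mean log2(CPM + 1) of 17 macrophage genes was 1.02, 3.83 and 1.85 in day 6 libraries 1, 2 and 3 and 1.26, 4.30 and 1.91 at day 9, so library 2 was highest at both days. The MEF libraries had the same order, at 0.46, 3.60 and 1.59. Lyz2, a macrophage lysozyme gene named after its values were seen, was at 0.270, 113 and 15.04 CPM at day 6 and 2.50, 143 and 17.3 CPM at day 9. Of the 17 genes 5 were higher in all 3 pairs and 0 lower. Without pair 2 the median log2 change was 0.95 for the epithelial, 0.74 for the pluripotency and -0.55 for the G2 and M phase list. Endothelial genes had a median of 0.92, with 8 of 15 higher in all 3 pairs, and 0.30 among the 8 members with at least 1 CPM. Kdr, a VEGF receptor gene, was at 4.64, 0.404 and 1.11 CPM and then at 15.7, 1.06 and 6.98 CPM (1.95 ± 0.97), higher in each pair but overlapping. Its log2 change was 0.95 without replicate 1 of day 9 and 3.35 without replicate 1 of day 6. Interferon response genes had a median of 0.42, with 11 of 25 higher in all pairs, and 0.16 among the 19 members with at least 1 CPM.

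The same days were compared between the fractions, with the SSEA1- step set against the SSEA1+ step. In the edgeR model of 33 libraries 1 gene differed between the steps (0.00577%). Cdh3, for P-cadherin, another classical cadherin, had 183, 146 and 208 CPM in MEFs, where the mean log2(CPM + 1) of the epithelial list was 1.14 to 1.29. It was at 2.94, 6.83 and 7.84 CPM and 4.68, 8.88 and 4.55 CPM in SSEA1- cells, a log2 change of 0.05 ± 0.44. In SSEA1+ cells it rose from 1.25, 0.427 and 0.845 CPM to 13.2, 6.80 and 24.0 CPM, a log2 change of 4.11 with an edgeR adjusted p of 0.00013. The difference between the steps was -4.06 with an edgeR adjusted p of 0.039, and it was not called when any of 8 single libraries was left out. The same-numbered SSEA1+ libraries also deviated together, at r = 0.63, 0.55 and 0.39. A fit of the 12 libraries took the replicate number as a block, separately within each fraction. In it edgeR called 73 genes with a higher step in SSEA1- cells (0.475% of 15364 genes) and 47 with a lower one (0.306%). With the same block in the model of 33 libraries, Cdh3 was the only gene called.

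In the paired fit of 12 libraries, 6 of 33 fibroblast and mesenchymal genes had a higher step in SSEA1- cells and 0 a lower one. They were Col5a1, Col5a2, Col6a1, Col6a2 and Fbn1, all of the fibrous matrix, and Prrx1, a mesenchymal homeobox factor, and the list's median difference was 0.74 against 0.01 over all genes. These genes were named after their values were seen. Col6a1 stood at 439, 647 and 446 CPM at day 6 and 442, 677 and 449.8 CPM at day 9 in SSEA1- cells. In SSEA1+ cells it was at 275, 163 and 87.7 CPM and then at 78.0, 76.1 and 31.6 CPM. The difference between the steps was 1.52 (paired edgeR adjusted p = 0.0284). Prrx1 was lower at day 9 in both fractions, from 492, 535 and 458 CPM to 358, 423 and 329 CPM in SSEA1- cells and from 106, 148 and 114 CPM to 17.2, 48.0 and 13.4 CPM in SSEA1+ cells, with a difference of 2.03 (paired edgeR adjusted p = 0.0445). Tgfb3 and Grem1, which encode a TGF-beta ligand and a BMP antagonist, differed by 1.48 and 2.49 (paired edgeR adjusted p = 0.0264 and 0.0469).

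Pluripotency and epithelial genes differed in the other direction. In the paired fit 6 of 35 pluripotency genes had a lower step in SSEA1- cells and 0 a higher one, with a median difference of -1.77. Zfp42 differed by -2.80 and Lefty1, an inhibitor of Nodal signalling, by -2.78 (paired edgeR adjusted p = 0.0439 for each). The Lefty1 means at day 6 and day 9 were 3.04 and 3.12 CPM in SSEA1- cells and 1.39 and 10.4 CPM in SSEA1+ cells. Of 34 epithelial genes 3 had a lower step, Cdh3, Krt18 and the tight junction gene Tjp3, with a median of -1.11. Krt18, Tjp3, Lefty1, Tgfb3 and A4galt were named after their values were seen. Krt18 was at 22.2, 5.58 and 4.15 CPM and then 22.8, 6.11 and 6.10 CPM in SSEA1- cells, against 14.3, 2.296 and 4.96 CPM and then 56.4, 13.1 and 28.9 CPM in SSEA1+ cells (difference -2.07, paired edgeR adjusted p = 0.0284). A4galt, which makes a blood group glycolipid, had a difference of -3.94 (paired edgeR adjusted p = 0.034). Among genes of G2 and M phase no member differed by 2-fold, while 7 of 20 had an adjusted p under 0.05, all with a lower step in SSEA1- cells, and the median difference was -0.62. Over all genes 0.892% had a lower and 0.989% a higher step at that p alone. Ube2c differed by -0.97 (paired edgeR adjusted p = 0.0331), and it stood at 210.1, 157 and 170.4 CPM at day 6 and at 226, 166 and 192 CPM at day 9 in SSEA1+ cells.

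Over the days of the SSEA1- fraction the epithelial list was higher at each later day, by mean log2(CPM + 1) and without a test. It was at 1.46 to 1.499 at day 3, 1.81 to 2.25 at day 6, 2.33 to 3.04 at day 9 and 3.74 to 4.10 at day 12, with no overlap between neighbouring days. Day 9 SSEA1- cells lay within or just below the day 6 SSEA1+ range of 2.48 to 3.62. The list of G2 and M phase was at 7.56 to 7.80 at day 3, 6.19 to 7.07 at day 6, 5.55 to 6.50 at day 9 and 5.6 to 6.07 at day 12. Day 6 and day 9 overlapped, as did day 9 and day 12, and the SSEA1+ libraries of days 6 and 9 were all at 7.38 to 7.65. The pluripotency list was at 1.43 to 1.88 at day 6, 1.84 to 2.07 at day 9 and 2.70 to 3.66 at day 12, against 4.52 to 5.10 in day 9 SSEA1+ cells.

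**Figure D5:**
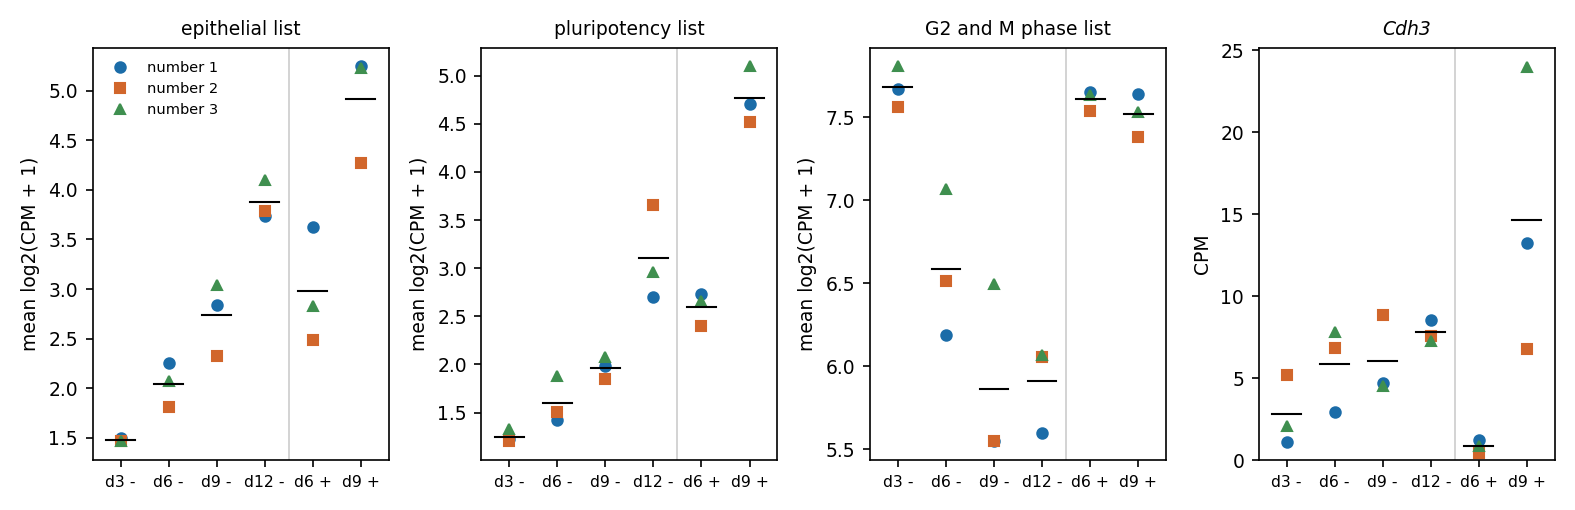
Mean log2(CPM + 1) of the epithelial, pluripotency and G2 and M phase lists and CPM of Cdh3, with 1 symbol per library, a bar for the group mean, SSEA1- groups of days 3 to 12 at the left and SSEA1+ groups of days 6 and 9 at the right of each panel. Day 9 SSEA1- libraries lie at 2.33 to 3.04 in the epithelial list against 4.27 to 5.25 in day 9 SSEA1+ libraries, and Cdh3 is at 4.55 to 8.88 CPM against 6.80 to 24.0 CPM.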

How the data were processed

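The series holds poly-A RNA libraries of 33 samples, made with a kit that keeps strand, per the labels' protocols, and 6 of them carry the step described here. The authors deposited raw counts of reads per Ensembl gene, 1 file per library. STAR 2.3.0, Picard 1.100, HTSeq 0.6.0 and mm9 are named, per the submitters' processing notes, without saying what each did. Not given in the sources used here is the annotation release. File names alone speak of counting without strand, so sense and antisense reads of a locus cannot be told apart. Of 37583 gene IDs 32860 had a symbol in GENCODE M21, which belongs to another build and gave names and GC content only. Rows that name no gene were left out. In the 6 libraries reads in no gene made up 9.29 to 11.4%, ambiguous reads 2.56 to 3.15% and reads with several alignments 20.8 to 26.9%.

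edgeR 4.0.16 (R 4.3.3, limma 3.58.1) was run with glmQLFit (robust) and glmQLFTest, TMM and filterByExpr, in 1 model of 33 libraries with a mean for each of 11 groups and 22 degrees of freedom left. The test covered 17326 genes, with Benjamini-Hochberg adjustment. A call needed an adjusted p under 0.05 and a 2-fold change. SE is the log2 change over the root of F, and each SE printed is of this model of 33 libraries, which does not pair them. The pair ratios use log2 CPM with a prior count of 2. Scripts were tested on simulated data. The alternatives were DESeq2 1.42.0, its size factors in edgeR, no filter, a removed GC trend (96.3% of tested genes had a GC value), a replicate block, the compared libraries alone and leaving out each library.

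Replicate numbers pair the libraries as read from the data alone, since every pair's deviations correlated above 0.1. Between SSEA1- libraries of another day and number these correlations ran from -0.66 to 0.125, so that threshold alone does not set the pairs apart. No 2 libraries of 1 day agreed within sampling noise (chi-square divided by its degrees of freedom, 46.9 or more). The text names up to 4 members with the smallest p of each of 39 lists, 18 fixed genes, and, where called with at least 10 CPM and no overlap, up to 15 genes per direction (6 for the difference between the steps). Other genes are said to be named after their values were seen. Of the called genes 1 is not reported here. The groups, lists and members were chosen with earlier results of these data known. A block over all groups and leaving out a pair were added after seeing the data.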

Additional observations from a re-analysis of the deposited data

Results flagged for a closer look

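Cdh3 was the gene whose step from day 6 to day 9 differed between the SSEA1- and SSEA1+ fractions in the model of 33 libraries. The difference was -4.06 on the log2 scale (edgeR's quasi-likelihood test, adjusted p = 0.039), with 3 of 3 SSEA1+ pairs higher at day 9, and 2 of 3 SSEA1- pairs. With the replicate number as a block within each fraction, in a fit of the 12 libraries, it was -3.93 (edgeR adjusted p = 0.034).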

How the results depend on the processing

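The count of genes called for the step was 0, and it was 10 (all higher) with the replicate block in the fit of the compared libraries alone and 8 (all higher) with DESeq2. Leaving out 1 library gave 0 to 1, with 1 only without replicate 2 of day 9. It was 0 with the replicate block in the model of 33 libraries, with and without the GC trend, and under the remaining settings run. The difference between the steps had 1 called gene, Cdh3. It was also the 1 gene called with the replicate block in the model of 33 libraries, with and without the GC trend. The count was 0 in the fit of the 12 libraries alone and 120 (73 higher, 47 lower) with the replicate block in that fit. It was 7 with DESeq2 and 0 to 2 when 1 library was left out. It was 0 without SSEA1- replicates 1 or 3 of day 9 or 2 or 3 of day 6, and without the same numbers of the SSEA1+ groups. It was 2 (Cdh3 and AI661453, the latter named after its values were seen) without SSEA1+ replicate 1 of day 6. The step's log2 change turned sign in genes near 0 or carried by 1 library. When 1 library was left out, it ran from -0.30 to 0.315 for Cdh3, -0.15 to 0.61 for Cdkn1a, -0.053 to 0.83 for Cdkn2a, -0.53 to 1.05 for Col1a1, -1.59 to 3.39 for the macrophage receptor gene Csf1r, -2.11 to 2.81 for Lyz2, -0.39 to 0.092 for Myc, -0.051 to 1.61 for Nanog, -0.14 to 0.64 for Pou5f1, -0.50 to 1.04 for Sox2 and -0.27 to 0.28 for Trp63. Without a pair it was -0.11 (pair 1) and -0.17 (pair 2) for Cdh3, and -0.070 for Cdkn1a, -0.16 for Pou5f1 and 0.18 for Trp63 without pair 3. With the GC trend removed Pou5f1 was at -0.024. The cause was not tested. List medians kept their sign in 18 of 18 settings for the epithelial (0.67 to 1.39), pluripotency (0.48 to 1.61), G2 and M phase (-1.03 to -0.45), S phase (-0.75 to -0.26) and respiratory chain (-0.36 to -0.16) lists, and in 17 of 18 for the fibroblast, contractile and basement membrane lists. The replicate numbers show in the data but are not explained by the labels. At 12.62 M reads in the shallowest library, genes under 0.238 CPM were not separable from 0.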

Other observations

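No member of the lists of other developmental programmes passed edgeR's test in the model of 33 libraries. The median log2 change was 0.57 over 18 keratinocyte, 0.55 over 15 trophoblast, 0.53 over 15 neural, 0.60 over 19 germline and 0.45 over 13 endoderm genes. Among members with a mean of at least 1 CPM it was 0.20 for 7 keratinocyte, 0.20 for 6 trophoblast, 0.11 for 7 neural, -0.0028 for 4 germline and 0.20 for 4 endoderm genes. For cartilage and bone genes it was 0.53 over 14 and 0.64 over the 11 with at least 1 CPM, and Dmp1 of this list was called in the paired fit of 6 libraries. Trp63, a factor of basal epithelia, was at 5.10, 6.99 and 5.003 CPM at day 6 and 6.30, 7.06 and 2.72 CPM at day 9. Comp, a cartilage matrix protein, was at 1.04, 12.7 and 9.89 CPM and then at 11.6, 89.1 and 14.8 CPM, higher in all 3 pairs, with a log2 change of 2.29 ± 0.78 that was 0.79 without replicate 2 of day 9. Among signalling genes Hes1, a target of Notch and other pathways, went from 95.2, 88.7 and 65.3 CPM to 125, 276 and 125 CPM with no overlap (1.08 ± 0.46), while the Notch list of 15 had a median of 0.08. Dkk2, a Wnt antagonist, was at 11.9, 14.8 and 14.9 CPM and then at 29.1, 28.1 and 26.9 CPM (1.02 ± 0.52), also without overlap. Mmp13, a collagenase gene, was at 4.64, 66.7 and 31.4 CPM and then at 53.1, 119 and 39.5 CPM (1.04 ± 0.79), and its log2 change was 0.50 without replicate 2 of day 9 and 1.96 without replicate 2 of day 6. Of 19 cholesterol synthesis genes 2 were lower and 0 higher in all pairs, with a median of -0.16, and of 21 genes of the ATF4 and unfolded protein response 8 were lower and 5 higher, which became 4 and 6 with DESeq2's size factors.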
